A study of Mus musculus with 21 samples.

Results

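Forelimb buds (FBs) of E12.5 mouse embryos kept for 1 h in whole embryo culture were compared with FBs taken straight from E12.5 embryos (0 h). The comparison rests on 6 of the 21 arrays of the series, 3 per group, chosen by the stage and culture time in their labels. It covers 14860 genes, each read by an array feature that carries this gene alone, and by the feature with the highest mean where a gene has several. The question is which transcripts move within the first hour outside the uterus.

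The embryos were of the Swiss stock, the labels name no mutation, and the animals had received no agent, so both groups differ by label only in the hour of culture in a rotating bottle. Limbs were rinsed in saline, and total RNA was hybridized to Affymetrix Mouse Exon 1.0 ST arrays, which hold probes along the whole length of each transcript. The same series holds E12.5 FBs after 3 h and E10.5 FBs at 0, 1, 3 and 6 h, again with 3 arrays each. The arrays of a group are labelled as biological replicates, but neither the number or sex of embryos per array nor the level at which the limb was severed is stated. P-values therefore measure the spread between arrays. That spread was estimated over all 7 groups together, not from the 6 compared arrays alone. The root mean square deviation from the group mean was 0.14 to 0.18 on these 6 arrays and reached 0.35 at E10.5. Values are log2 units on the authors' RMA scale, on which 1 unit is a doubling.

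A limb bud is a core of mesenchyme under an ectodermal jacket, entered by blood vessels, muscle precursors and nerves. Position along the limb is read out by homeobox genes: Meis genes and the low-numbered Hox genes mark the shoulder, upper arm and adjoining body wall, and the high-numbered HoxA and HoxD genes with Msx genes mark the forearm and hand plate. At this stage the mesenchyme condenses into cartilage in the centre and forms tendon, dermis and other connective tissue around it, while its cells go on dividing. Explanted embryos lose the maternal blood supply and meet handling, new medium and a change of temperature, and such handling is widely known to switch on heat shock and early response genes.

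Array medians over all features lay between 6.47 and 6.54 at 0 h and between 6.5 and 6.6 at 1 h, and replicates correlated at 0.993 to 0.9959. *Tbx5*, which defines the forelimb, read 11.31, 11.35 and 11.31 at 0 h and 11.06, 10.9 and 11.05 at 1 h, and the limb mesenchyme gene *Prrx1* was between 11.76 and 12.17 on all 6 arrays. In genes of liver and yolk sac 1 array stood apart: 0 h replicate 3 read 11.75 for *Afp* and 9.67 for *Alb*, both made there, against 4.19 to 6.81 and 4.25 to 5.33 on the other 5 arrays. Over the 16 genes of that list the 0 h arrays averaged 5.45, 4.92 and 7.96, and the 1 h arrays lay between 4.99 and 5.08. Replicate 1 of 0 h was the highest in placental genes: *Prl8a2* read 7.72, 3.94 and 5.77 at 0 h and 3.59, 3.96 and 3.83 at 1 h. Over the 11 placenta and decidua genes the 0 h arrays averaged 4.66, 3.96 and 4.33, and those of 1 h 3.96, 4.12 and 4.01. Of these 11, 5 were higher and 6 lower at 1 h, and the part of such tissue in the changes was not tested. Over the 2 measured Y-linked genes the 0 h arrays averaged 8.54, 3.37 and 3.16 and those of 1 h 8.4, 8.46 and 3.22, so male tissue was not spread evenly over the groups.

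After 1 h, 191 of the 14860 genes had risen (1.29%) and 123 had fallen (0.828%), by limma over all 21 arrays at a Benjamini-Hochberg adjusted p under 0.05. The median rise was 0.92, with a range from 0.31 to 3.13, and the median fall was -0.56, with a range from -0.33 to -1.7. A rise of at least 1 unit was found for 78 genes and a fall of at least 1 unit for 8. All 314 called genes had 3 arrays of one group above the 3 of the other, a pattern shown by 13.9% of all genes in the higher and 13% in the lower direction. With 3 arrays a side the smallest p of an exact permutation test is 0.1, which is why limma was used for every gene. The split between rises and falls depended on the scale: 60.8% of the called genes were rises on the deposited values, and 77% after each array was shifted to a common median (221 risen, 66 fallen). Without 0 h replicate 3, 172 genes had risen and 80 had fallen, and over the 6 fits that each left out 1 of these arrays the counts ran from 79 to 172 and from 19 to 117, lowest for rises without 1 h replicate 1 and for falls without 0 h replicate 1. With the mean of the liver and yolk sac list as a covariate 203 rose and 107 fell, and with the mean of the Y-linked genes 146 and 109, both fits chosen after seeing the data. Only 55 of the 314 called genes belong to one of the 40 gene lists used below.

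The gene with the largest rise was *Cxcl13*, a chemokine that attracts B lymphocytes. It read 4.98, 4.81 and 5.18 before and 8.51, 8.24 and 7.61 after culture. The lowest array at 1 h stood more than 2 units above the highest at 0 h, and the rise was 3.13 ± 0.22 (SE), or 8.75-fold (limma adjusted p = 6.19e-07). *Hspa1a*, an inducible Hsp70 chaperone, came next and is described with the heat shock genes. *Lyve1*, a hyaluronan receptor of lymphatic vessels and some macrophages, read 4.7, 4.55 and 5.33 at 0 h and 7.57, 7.52 and 8.13 at 1 h. Its groups were separated widely, with a rise of 2.88 ± 0.31 (SE; limma adjusted p = 9.46e-05).

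*Adh1*, an alcohol dehydrogenase that can oxidize retinol to retinal, read 6.2, 6.52 and 7.65 before and 9.76, 9.62 and 9.48 after culture. The 0 h arrays were spread over more than 1 unit, with replicate 3 the highest, and all lay below the 1 h arrays, which were close together. The rise was 2.83 ± 0.26 (SE), or 7.12-fold (limma adjusted p = 1.38e-05). *Rxfp2*, the receptor of the hormone Insl3, read 4.44, 4.25 and 3.72 at 0 h and 7.35, 7.41 and 6.11 at 1 h, a rise of 2.82 ± 0.35 (SE; limma adjusted p = 0.000238). Here 1 h replicate 3 was the lowest of its group and still above all 0 h arrays. *Cemip*, which takes part in the breakdown of hyaluronan, rose by 1.82 from 4.78, 4.43 and 4.88 to 6.12, 6.62 and 6.82, so that genes for a receptor and for the turnover of hyaluronan were both among the 15 largest rises. The other genes in this group that are neither Hox genes nor chaperones encode a synaptic adhesion protein (*Lrrtm3*, 2.46), potassium channel partners (*Kcne4*, 1.97, and *Kcnip1*, 1.93), an ephrin receptor (*Ephb1*, 1.88), a monocarboxylate transporter family member (*Slc16a14*, 1.81) and a secreted protein known from neurons (*Lgi1*, 1.68). The calls of these 12 genes, *Hspa1a* included, were kept in each of the 6 fits that left out 1 E12.5 array at 0 h or 1 h.

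**Figure D1:**
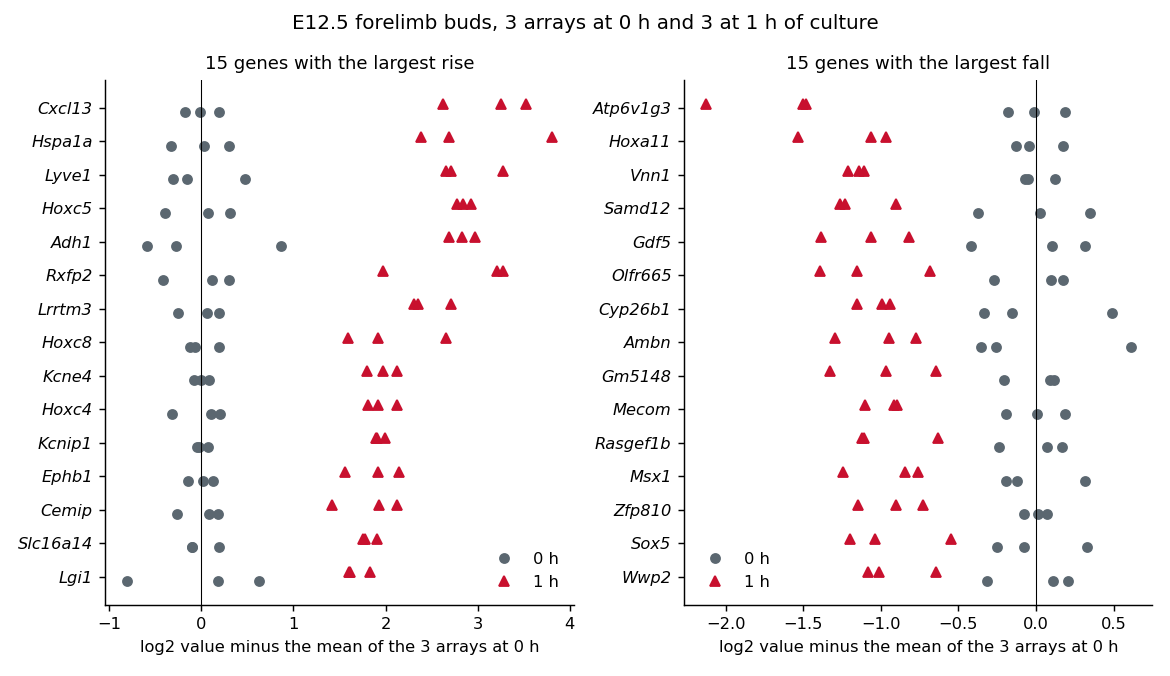
Log2 value of each array minus the mean of the 3 arrays at 0 h, for the 15 genes with the largest rise (left) and the 15 with the largest fall (right); circles are arrays at 0 h and triangles arrays at 1 h. The rises reach 3.13 in Cxcl13, whereas the largest fall is -1.7 in Atp6v1g3, and in no gene do both groups overlap.

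Falls were smaller. *Atp6v1g3*, a subunit of the proton pump of vesicles, read 8.68, 8.48 and 8.31 at 0 h and 7.01, 6.99 and 6.36 at 1 h. All 1 h arrays were more than 1 unit below all 0 h arrays, and the fall was -1.7 ± 0.23 (SE; limma adjusted p = 0.000567). *Vnn1*, a pantetheinase of the cell surface, fell by 1.16 from 6.42, 6.4 and 6.59 to 5.33, 5.36 and 5.26. *Zfp810*, a zinc finger gene of unknown role, fell by 0.93 from 8.35, 8.29 and 8.2 to 7.38, 7.55 and 7.13. *Ambn*, known for its role in tooth enamel, fell by 1 from 5.55, 5.65 and 6.52 to 4.96, 5.13 and 4.61. The calls of these 4 genes were kept whichever array was left out.

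*Gdf5*, *Sox5* and the distal limb genes among the largest falls are given with their groups, and the remaining ones depended more on single arrays. *Samd12* (-1.13), the ubiquitin ligase gene *Wwp2* (-0.91) and *Gm5148* (-0.98) were called in 3, 2 and 5 of the 6 fits without 1 array, with adjusted p up to 0.117, 0.0709 and 0.0573. *Samd12* was lost without 0 h replicate 1, 1 h replicate 1 or 1 h replicate 3, *Wwp2* without 0 h replicates 1 or 2 or 1 h replicates 1 or 3, and *Gm5148* without 1 h replicate 1. *Rasgef1b* (-0.95), an exchange factor for small GTPases, was kept only without 1 h replicate 2, and the transcription factor *Mecom* (-0.97) only without 0 h replicate 3. The olfactory receptor *Olfr665* (-1.07) was kept only without 1 h replicate 3, and its 6 values, between 2.12 and 3.69, lay far below the array medians. The adjusted p of these 3 genes rose to 0.211, 0.141 and 0.206 in the other fits. Among 212 measured genes whose symbol is Zfp and a number, a group chosen after its values were seen, 0 rose by limma and 6 fell (2.83%), and at an unadjusted p under 0.05 4 were higher (1.89%) and 47 lower (22.2%), where all genes gave 0.828% fallen and, unadjusted, 6.18% higher and 7.36% lower.

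Of 32 measured Hox genes, which give cells their position, 9 rose and 1 fell, and the other 22 were not called. All genes gave 1.29% risen and 0.828% fallen. By description, with no test of a trend, the sign of the change followed the paralogue number, which counts position along each cluster and along the body axis. In paralogues 1 to 4 all 9 genes were higher at 1 h and 6 rose, with a median change of 0.94. In paralogues 5 to 8 all 10 were higher and 3 rose (median 0.65). In paralogues 9 and 10, 6 of 7 were lower and 0 were called by limma (4 at an unadjusted p under 0.05, median -0.55), and in paralogues 11 to 13 all 6 were lower and 1 fell (median -0.7). The median over all 14860 genes was 0. By an unadjusted p under 0.05, 7 of 9 genes were higher in paralogues 1 to 4 (77.8%) and 6 of 10 in paralogues 5 to 8 (60%). Lower were 4 of 7 in paralogues 9 and 10 (57.1%) and 4 of 6 in paralogues 11 to 13 (66.7%). Over all genes 6.18% were higher and 7.36% lower.

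Among the HoxC genes, *Hoxc5* read 7.28, 7.99 and 7.75 at 0 h and 10.6, 10.45 and 10.51 at 1 h. That is a rise of 2.85 ± 0.29 (SE), or 7.21-fold, with groups more than 2 units apart (limma adjusted p = 6e-05). In the same cluster *Hoxc8* read 6.94, 6.89 and 7.21 and then 9.67, 8.93 and 8.61, a rise of 2.06 ± 0.35 (SE), and *Hoxc4* rose by 1.95 and *Hoxc6* by 1.25. All 4 were called in each fit without 1 array. *Hoxc9* (-0.07), *Hoxc10* (-0.33), *Hoxc12* (-1.03, adjusted p = 0.115) and *Hoxc13* (-0.4), further along the same cluster, were not called. So the 4 measured HoxC genes numbered up to 8 rose, and none of the 4 numbered from 9 on was called.

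In HoxB, *Hoxb3* rose by 1.35 from 6.44, 6.37 and 6.62 to 7.88, 7.74 and 7.85, with no overlap. *Hoxb4*, which lies within the annotated span of *Hoxb3*, rose by 1.26, and *Hoxb2* by 1.24. *Hoxa2* rose by 0.91 and *Hoxd1* by 0.68. *Hoxa11*, which patterns the forearm, was the 1 member that fell: it read 9.63, 9.55 and 9.85 at 0 h and 8.61, 8.14 and 8.71 at 1 h, a fall of -1.19 ± 0.25 (SE; limma adjusted p = 0.0181). *Hoxa10* (-0.78, adjusted p = 0.0624), *Hoxd10* (-0.86, adjusted p = 0.104) and *Hoxd13* (-0.81, adjusted p = 0.352) were lower without passing the test, and the *Hoxd13* arrays overlapped (11.46, 11.4 and 11.02 against 9.8, 11.21 and 10.43). Several of these calls depended on single arrays. *Hoxa2* lost its call in all 6 fits without 1 array (adjusted p 0.0895 to 0.114), *Hoxd1* in all but the fit without 1 h replicate 2 (up to 0.186) and *Hoxa11* in all but the fit without 1 h replicate 3 (up to 0.0768). *Hoxb2* was lost without 0 h replicates 1 or 2 (up to 0.0617) and *Hoxb4* without these or 1 h replicate 1 (up to 0.069), whereas *Hoxb3* was always kept.

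**Figure D2:**
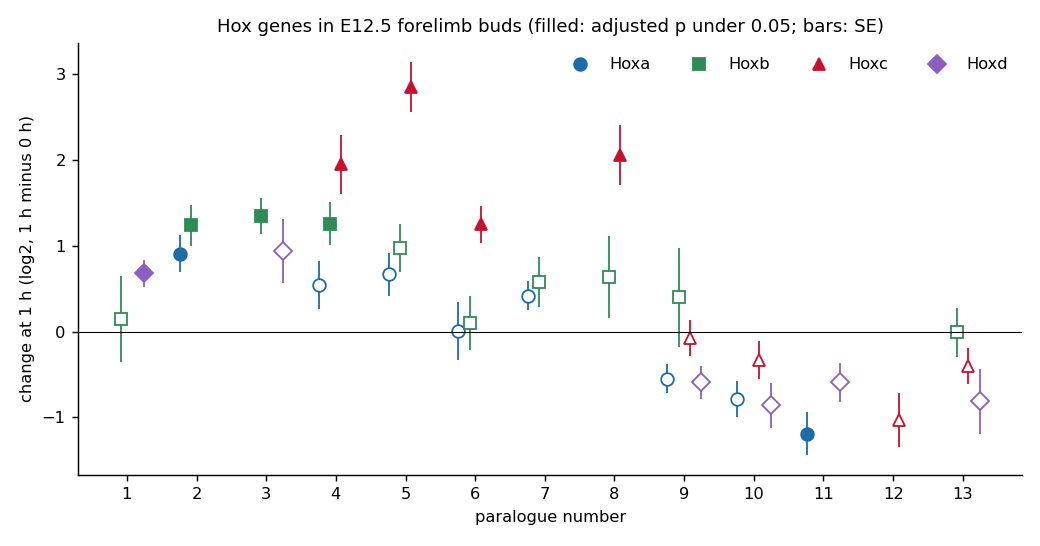
Change at 1 h (log2, 1 h minus 0 h, with its SE) of 32 Hox genes by paralogue number, with 1 colour and symbol per cluster and filled symbols at an adjusted p under 0.05. All 19 genes of paralogues 1 to 8 lie above 0, led by Hoxc5 at 2.85, and 12 of the 13 genes of paralogues 9 to 13 lie below it, with Hoxa11 lowest at -1.19.

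Some other genes of the proximal limb and flank rose as well. Of 24 measured members of that list, 8 rose (the background is 1.29%), 0 fell, and the median change was 0.48. Besides the 4 HoxC genes these were *Pax1*, which acts in the shoulder girdle and vertebral column (1.43), and *Meis1* (1.38), *Meis2* (1.06) and *Irx3* (1.02), the last 3 taken from the list after their values were seen. *Meis1* read 7.62, 7.71 and 8.25 at 0 h and 9.29, 9.29 and 9.16 at 1 h, and *Meis2* read 9.93, 10.11 and 10.56 and then 11.25, 11.32 and 11.19. In both genes the 1 h arrays were tight and above every 0 h array, and 0 h replicate 3 was the highest of its group. Of the 5 members that were lower, *Foxc2*, a factor of the embryonic mesoderm, had the lowest change (-1.01, adjusted p = 0.0746), and 2 of the 24 were lower at an unadjusted p under 0.05 (8.33%, against 7.36% of all genes). In other settings 1 member fell at a common median, after quantile normalization and in the 6 arrays alone, and 2 with array weights. The call of *Pax1* was kept only without 1 h replicate 2 (adjusted p up to 0.167 in the other fits).

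Genes of the distal mesenchyme were mostly lower: of 23 measured, 0 rose by limma (1 at an unadjusted p under 0.05), 3 fell (the background is 0.828%) and 19 were lower, with a median of -0.38. *Msx2*, a homeobox gene of the distal margin, read 10.16, 9.96 and 9.9 at 0 h and 9.13, 9.28 and 8.98 at 1 h, a fall of -0.88 ± 0.15 (SE; limma adjusted p = 0.00567) that was kept in every fit without 1 array. *Msx1* fell by 0.95 from 11.15, 10.71 and 10.64 to 9.59, 10.07 and 9.99. *Cyp26b1*, the enzyme that clears retinoic acid from the distal limb, fell by 1.03 from 9.39, 8.75 and 8.57 to 7.75, 7.96 and 7.91. *Msx1* was kept only without 0 h replicate 3 or 1 h replicate 2 (up to 0.186) and *Cyp26b1* only without 0 h replicate 3 (up to 0.239). *Dlx5* (-0.65) and *Dach1* (-0.65), further limb genes chosen after their values were seen, also fell.

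The array means of both lists did not overlap between the groups. Such separation was not particular to them. The collagen, mitosis, chemokine and immediate early lists, among others, also had separate array means, the last with 0 calls by limma. For the proximal and flank list they were 7.83, 7.84 and 7.98 at 0 h and 8.61, 8.44 and 8.46 at 1 h, and for the distal list 9.19, 8.97 and 9 at 0 h and 8.56, 8.72 and 8.64 at 1 h. In bulk tissue, fewer cells of a type and less RNA per cell cannot be told apart, nor can a different share of proximal tissue in the dissected limbs be told apart from a change within cells. Genes of the other limb gave no common direction: the hindlimb gene *Pitx1* was 0.78 higher (adjusted p = 0.117) and *Tbx4* was 0.56 lower (change -0.56, adjusted p = 0.0984).

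**Figure D3:**
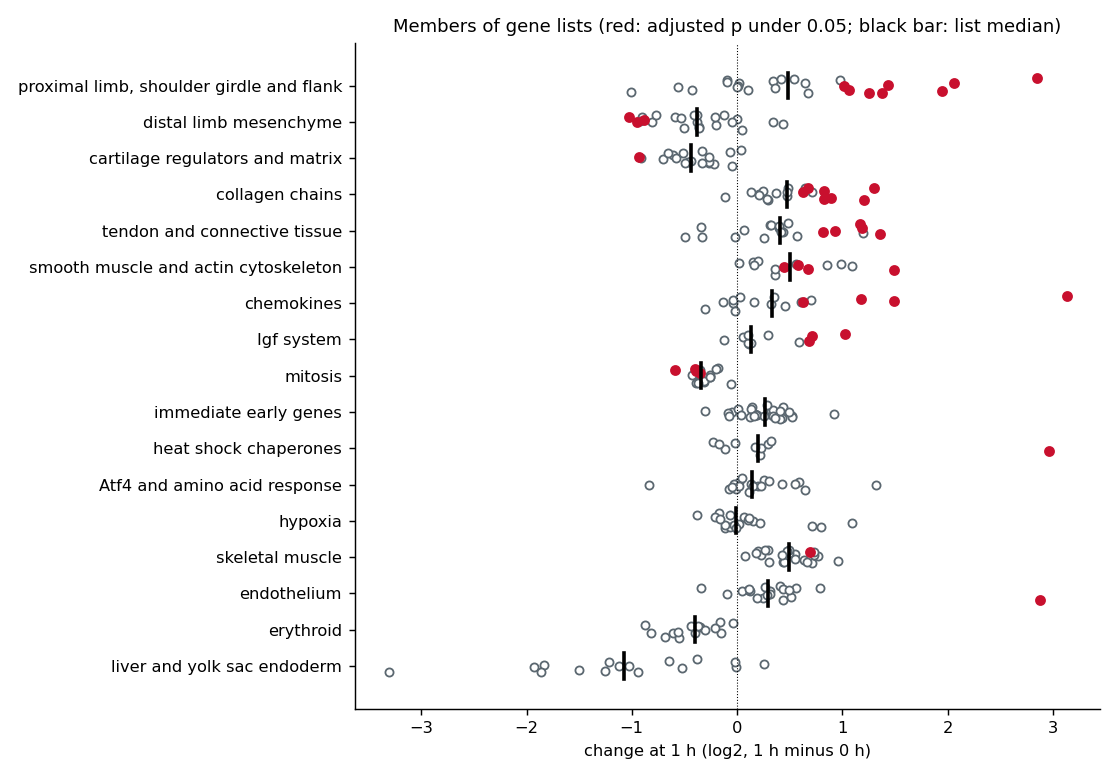
Change at 1 h (log2, 1 h minus 0 h) of each measured member of 17 gene lists, 1 dot per gene, red where the adjusted p was under 0.05, with a black bar at the list median. The proximal and flank list (median 0.48), the collagens (0.47) and the smooth muscle list (0.5) lie to the right, the distal list (-0.38), cartilage (-0.44) and mitosis (-0.34) to the left, and the wide spread of the liver and yolk sac list comes with 0 called members.

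Cartilage genes were lower as a group, with 1 call. Of 19 measured, 18 were lower at 1 h, 1 fell (the background is 0.828%) and the median was -0.44. By an unadjusted p under 0.05, 9 were lower (47.4%) and 0 higher, against 7.36% and 6.18% of all genes. *Sox5*, which works with *Sox6* and *Sox9* to set up cartilage, read 9.45, 9.04 and 8.87 at 0 h and 7.92, 8.57 and 8.08 at 1 h, a fall of -0.93 ± 0.22 (SE; limma adjusted p = 0.0365). Its groups were separated, but the call was kept only without 0 h replicate 3 or 1 h replicate 2 (up to 0.211). *Sox9* lay between 10.49 and 10.7 and then at 9.8, 10.12 and 10.04 (-0.58, adjusted p = 0.0602), and *Sox6* at -0.61 (adjusted p = 0.223), neither called. *Gdf5*, the growth factor of future joints and the 1 called member of 15 Bmp, Gdf and antagonist genes, read 9.91, 9.7 and 9.18 at 0 h and 8.21, 8.78 and 8.53 at 1 h. Its fall was -1.09 ± 0.21 (SE; limma adjusted p = 0.00912), and the call was lost without 0 h replicates 1 or 2 or 1 h replicate 1 (up to 0.0709). In that list of 15, 3 were lower (20%) and 0 higher at an unadjusted p under 0.05.

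Several genes of fibrous connective tissue rose. Of 20 measured collagen chains, 7 rose (the background is 1.29%), 0 fell and 19 were higher, with a median of 0.47. By an unadjusted p under 0.05, 13 were higher (65%) and 0 lower, against 6.18% and 7.36% of all genes. *Col6a1* and *Col6a2*, adjacent genes whose chains assemble into microfibrils around cells, led: *Col6a1* read 8.8, 8.71 and 9.06 and then 10.25, 10.07 and 10.15 (rise 1.3 ± 0.18, SE), and *Col6a2* read 8.53, 8.43 and 8.52 and then 9.92, 9.51 and 9.68 (rise 1.21 ± 0.16, SE). The groups of both were about 1 unit apart, with limma adjusted p of 0.000615 and 0.000648. The fibrillar chains *Col1a1* (0.89), *Col3a1* (0.83) and *Col1a2* (0.67) rose, and so did *Col14a1* (0.83) and *Col26a1* (0.63). *Col1a1* read 9.76, 9.46 and 9.66 and then 10.48, 10.54 and 10.52, without overlap, but lost its call in all 6 fits without 1 array (adjusted p 0.0565 to 0.129). *Col12a1* was at 0.47 (adjusted p = 0.303). The list of tendon and connective tissue genes gave 5 rises among 20 measured (the background is 1.29%, list median 0.41). Unadjusted, 8 of these 20 were higher at p under 0.05 (40%) and 0 lower. *Thbs2*, a matrix protein that binds growth factors and collagen, was 1 of the 5 and rose by 1.36 from 7.82, 7.6 and 8 to 9.17, 9.23 and 9.1.

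*Aspn* (1.19), *Ogn* (0.93), *Postn* (1.17) and *Efemp1* (0.82), all secreted matrix proteins, were the other 4, the last named after its value was seen. *Postn* read 9.57, 9.82 and 10.29 at 0 h and 11.12, 11.06 and 11 at 1 h, and its call was kept only without 0 h replicate 3 (up to 0.195). *Ogn* was lost without 0 h replicates 1 or 2 or 1 h replicate 3 (up to 0.0862), and *Aspn* was always kept. *Tnc*, another matrix gene of tendons, was at 10.19, 9.9 and 10.43 and then 10.37, 10.78 and 10.68 (0.44, adjusted p = 0.531), with overlapping groups.

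Smooth muscle and actin cytoskeleton genes rose in 4 of 14 cases (the background is 1.29%), and all 14 were higher (median 0.5). By an unadjusted p under 0.05, 7 were higher (50%) and 0 lower, against 6.18% and 7.36% of all genes. *Tagln*, which binds actin in smooth muscle and in cells under tension, read 6.13, 6.01 and 6.52 and then 7.69, 7.67 and 7.77, a rise of 1.49 ± 0.24 (SE; limma adjusted p = 0.00284). The 1 h arrays were close together and more than 1 unit above the 0 h arrays. *Vcl*, which links actin to adhesion sites, rose by 0.67, *Cnn2*, a calponin, by 0.58 and *Tpm1*, a tropomyosin, by 0.45. *Cnn2* was lost in all 6 fits without 1 array (0.066 to 0.143), *Tpm1* in all but the fit without 0 h replicate 3 (up to 0.191), and *Vcl* was kept only without 0 h replicate 3 or 1 h replicate 2 (up to 0.0847).

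Many genes of this kind are known to be driven by serum response factor, which binds the CArG box. The 250 bases before the start site of these 4 genes were searched on both strands for the CArG box in RefSeq (GRCm38.p6). *Cnn2* (chr10:79988350-79988599, plus strand) and *Vcl* (chr14:20929148-20929397, plus strand) hold 1 match each, shown in capitals, *Tpm1* holds none, and *Tagln* has no entry. The box occurs in 1.47% of 32851 promoters of this length, and a match is a description of the sequence only. Both promoters carry the same 10 letters.
Cnn2: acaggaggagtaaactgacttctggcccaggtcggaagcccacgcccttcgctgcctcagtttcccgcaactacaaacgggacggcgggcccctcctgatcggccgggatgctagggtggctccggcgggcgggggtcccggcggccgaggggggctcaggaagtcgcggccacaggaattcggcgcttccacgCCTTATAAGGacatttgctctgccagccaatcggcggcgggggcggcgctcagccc
Vcl: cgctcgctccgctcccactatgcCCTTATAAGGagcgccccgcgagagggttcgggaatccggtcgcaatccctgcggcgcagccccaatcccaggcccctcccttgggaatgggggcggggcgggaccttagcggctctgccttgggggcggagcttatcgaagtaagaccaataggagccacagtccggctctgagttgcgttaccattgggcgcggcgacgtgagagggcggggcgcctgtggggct

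Some secreted signals rose. Of 16 measured chemokine genes and receptors, 4 rose (the background is 1.29%), 0 fell and 11 were higher (median 0.33). Besides *Cxcl13* these were *Ccl11*, an attractant of eosinophils, which rose by 1.49 from 5.6, 5.34 and 5.48 to 7.06, 7 and 6.83, and *Ccl3* (1.18) and *Cxcl12* (0.63). *Ccl11* was kept in all 6 fits without 1 array, *Ccl3* only without 0 h replicate 1 (up to 0.15) and *Cxcl12* only without 0 h replicate 3 (up to 0.181). In the insulin-like growth factor system 3 of 11 rose: *Igf1*, the growth factor itself, from 7.17, 7.53 and 7.52 to 8.64, 8.37 and 8.32 (1.03 ± 0.16, SE), its binding protein *Igfbp3* by 0.71 and the *Igf2* receptor *Igf2r* by 0.68. *Igf1* was always kept, *Igfbp3* was lost without 0 h replicate 1 or 1 h replicates 1 or 3 (up to 0.0968), and *Igf2r* was kept only without 0 h replicate 3 (up to 0.138). All genes gave 1.29% risen. Unadjusted, 7 of 16 chemokine genes (43.8%) and 4 of 11 growth factor system genes (36.4%) were higher at p under 0.05. None of either list was lower, against 6.18% higher and 7.36% lower over all genes.

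*Wnt2b* was the 1 called ligand among 17 Wnt genes. It read 6.54, 6.36 and 6.68 at 0 h and 8.13, 7.93 and 8.12 at 1 h, a rise of 1.53 ± 0.2 (SE; limma adjusted p = 0.000426) with groups far apart. All genes gave 1.29% risen. Of the 17 Wnt genes, 2 were higher (11.8%) and 1 lower (5.88%) at an unadjusted p under 0.05, against 6.18% and 7.36% of all genes. The secreted Wnt antagonist *Sfrp1*, chosen after its value was seen, rose by 1.61 from 9.4, 8.9 and 9.35 to 11.14, 10.57 and 10.77. *Fgf7*, a mesenchymal factor that acts on epithelium, was the 1 called gene of 15 in the Fgf list and rose by 1.33 from 5.92, 6.49 and 6.7 to 8.01, 7.54 and 7.56. The limb bud signals *Fgf8* of the apical ridge (-0.03, adjusted p = 0.98) and *Fgf10* of the mesenchyme (0.01, adjusted p = 0.991) had overlapping groups. In the Fgf list 1 gene was higher and 1 lower at an unadjusted p under 0.05 (6.67% each, against 6.18% and 7.36% of all genes). In the Hedgehog list *Cdon*, a co-receptor, rose by 0.58 as 1 of 9 and lost its call only without 0 h replicate 2 (0.061). The list median was -0.09 and 5 of its 9 genes were lower, 4 of them at an unadjusted p under 0.05 (44.4%): the antagonist *Hhip* (-0.48, adjusted p = 0.1), the factor *Gli3* (-0.46, adjusted p = 0.111), the receptor and target *Ptch1* (-0.41, adjusted p = 0.126) and the target *Gli1* (-0.36, adjusted p = 0.334), listed after their values were seen. In the list, 2 fell after quantile normalization, 4 with array weights and 1 in the 6 arrays alone.

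Of 16 genes of retinoic acid handling, *Adh1* rose and *Cyp26b1* fell, both described above. *Aldh1a2*, which makes retinoic acid from retinal, read 11.38, 11.34 and 10.84 and then 10.72, 11.13 and 10.9 (-0.27, adjusted p = 0.819), with overlapping groups.

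Of 10 measured heat shock chaperones only *Hspa1a* rose (the background is 1.29%). Its values were 7.49, 8.12 and 7.85 at 0 h and 10.21, 11.63 and 10.51 at 1 h, a rise of 2.96 ± 0.43 (SE), or 7.8-fold (limma adjusted p = 0.00116). The 1 h arrays differed by more than 1 unit among themselves, and the lowest was still more than 2 units above the highest 0 h array. The gene has a near-identical neighbour, *Hspa1b*, whose transcripts the probes may read as well. The other 9 members of the list had changes from -0.23 up, none called, and the list median was 0.19. Of the 10 genes, 1 was higher (10%) and 0 lower at an unadjusted p under 0.05, against 6.18% and 7.36% of all genes. The promoter of *Hspa1a* (chr17:34972157-34972406, minus strand, GRCm38.p6, RefSeq) is shown because heat shock factor acts there through pairs of facing GAA repeats. A search on both strands for GAANNTTC, the core of such a pair, gave 1 match, in capitals, and 6.69% of 32851 promoters of this length hold these letters.
Hspa1a: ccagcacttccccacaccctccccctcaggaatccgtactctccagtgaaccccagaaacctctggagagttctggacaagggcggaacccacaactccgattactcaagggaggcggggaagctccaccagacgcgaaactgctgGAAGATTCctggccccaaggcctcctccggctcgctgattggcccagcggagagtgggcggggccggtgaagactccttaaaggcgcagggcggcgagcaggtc

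Other stress lists held no called gene at 1 h. None of 28 immediate early genes was called by limma, although 24 were higher and the median was 0.27. *Jun*, a member of the AP-1 factor, read 9.89, 9.96 and 9.81 and then 9.75, 9.92 and 9.84 (-0.05, adjusted p = 0.959). The lists of 16 endoplasmic reticulum chaperones (median 0.16), 20 *Atf4* and amino acid response genes (0.14), 19 hypoxia genes (-0.01), 11 glycolysis genes (0.02), 10 genes of oxidative stress and metallothionein (-0.2), 13 p53 targets (0.15), 14 genes of cholesterol synthesis (0.07), 8 glucose and glucocorticoid responsive genes (0.05) and 13 clock genes (0.13) also gave 0 calls by limma. *Hif1a*, the hypoxia factor, read 11.61, 11.52 and 11.67 and then 11.46, 11.67 and 11.48 (-0.06, adjusted p = 0.858). At an unadjusted p under 0.05, which 6.18% of all genes passed in the higher and 7.36% in the lower direction, 7 endoplasmic reticulum chaperones (43.8%), 2 glucose and glucocorticoid responsive genes (25%), 5 immediate early genes (17.9%), 2 clock genes (15.4%), 3 *Atf4* and amino acid response genes (15%) and 1 p53 target (7.69%) were higher, and 2 p53 targets (15.4%) and 1 hypoxia gene (5.26%) were lower. The absence of calls depended on the fit. In the 6 arrays alone 5 immediate early genes, 4 *Atf4* and amino acid response genes and 1 gene each of hypoxia and the endoplasmic reticulum chaperones rose, and 1 *Atf4* and amino acid response gene, 1 hypoxia gene and 1 oxidative stress gene fell. With array weights 4 immediate early genes, 5 endoplasmic reticulum chaperones and 2 *Atf4* and amino acid response genes rose, and 2 p53 targets and 1 hypoxia gene fell. The glucose and glucocorticoid list and the clock list each held 1 or 2 rises in both settings, at a common median and after quantile normalization, and 1 immediate early gene also rose after quantile normalization, without the 30% dimmest genes, with trend and robustness, and without 1 h replicate 2.

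Genes of mitosis were lower throughout. All 18 measured members were lower at 1 h, 4 fell, and the median was -0.34, with the lowest change at -0.59. All genes gave 0.828% fallen, and at an unadjusted p under 0.05 15 of the 18 were lower (83.3%, against 7.36% of all genes). The count of 4 depended on the fit: it was 1 at a common median and in the 6 arrays alone, 9 after quantile normalization, 8 with trend and robustness and 14 with array weights, and 0 without 0 h replicate 1 or 1 h replicate 3 and 1 without 0 h replicate 2 or 1 h replicate 1. *Ttk*, a kinase of the spindle checkpoint, read 9.49, 9.37 and 9.25 and then 8.88, 8.86 and 8.61, a fall of -0.59 ± 0.11 (SE; limma adjusted p = 0.00756). The mitotic cyclin gene *Ccnb2* read 12.12, 11.92 and 11.91 and then 11.61, 11.67 and 11.49 (-0.4 ± 0.09, SE). Both genes had separate groups. *Kif23*, a motor of cell division, fell by 0.39 and *Plk1*, a kinase of mitotic entry, by 0.35. *Ttk* was lost without 0 h replicate 1 or 1 h replicate 3 (up to 0.0565), *Ccnb2* was kept only without 0 h replicate 3 or 1 h replicate 2 (up to 0.151), *Kif23* only without 1 h replicate 2 (up to 0.186), and *Plk1* was lost in all 6 fits (0.0698 to 0.229). Without 0 h replicate 3 the list held 2 calls.

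Further genes of the same process, chosen after their values were seen, fell as well: *Esco2*, which joins sister chromatids (-0.67), the kinesin *Kif18a* (-0.66), *Chek2*, a DNA damage kinase (-0.65), *Mastl* (-0.62) and *Bora* (-0.59), which act at mitotic entry, the phosphatase *Cdc25c* (-0.53), *Nuf2* of the kinetochore (-0.52), *Aspm* of the spindle pole (-0.51) and *Prc1* of the spindle midzone (-0.47). *Esco2* read 9.72, 9.42 and 9.41 and then 8.81, 8.97 and 8.74. Its groups did not overlap. Promoters of mitotic genes are known for CCAAT boxes bound by the factor NF-Y, and all 4 called members of the list hold CCAAT on one strand or the other within 250 bases before the start site, against 33.8% of 32851 promoters. Those of *Ccnb2* (chr9:70421555-70421804, minus strand), with 3 matches, and *Plk1* (chr7:122159185-122159434, plus strand), with 1, are shown with the matches in capitals (RefSeq, GRCm38.p6).
Ccnb2: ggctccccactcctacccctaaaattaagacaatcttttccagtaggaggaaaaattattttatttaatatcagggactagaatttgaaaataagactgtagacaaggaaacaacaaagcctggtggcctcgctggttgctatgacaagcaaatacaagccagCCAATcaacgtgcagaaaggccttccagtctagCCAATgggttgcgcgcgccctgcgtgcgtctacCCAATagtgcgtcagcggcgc
Plk1: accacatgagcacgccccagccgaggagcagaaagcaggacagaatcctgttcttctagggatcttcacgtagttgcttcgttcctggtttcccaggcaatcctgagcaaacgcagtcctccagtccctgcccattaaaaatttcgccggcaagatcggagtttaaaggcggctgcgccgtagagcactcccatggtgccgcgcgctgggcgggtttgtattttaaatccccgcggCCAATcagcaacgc

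Among markers of other cell types, 1 of 23 skeletal muscle, 1 of 20 endothelial, 1 of 16 macrophage and 2 of 18 coelomic lining genes rose. All genes gave 1.29% risen. At an unadjusted p under 0.05, 7 of 23 skeletal muscle genes (30.4%), 6 of 20 endothelial genes (30%) and 6 of 18 genes of the coelomic lining (33.3%) were higher, against 6.18% of all genes, and with array weights 5, 9 and 5 rose. All 23 skeletal muscle genes were higher at 1 h (median 0.49), 1 of them, the calcium release channel *Ryr1*, rose by 0.69, and the array means were 7.95, 8.3 and 8.74 before and 8.91, 8.74 and 8.81 after culture. The defining factor *Myod1* read 9.15, 9.65 and 10 and then 10.48, 10 and 10.46 (0.71, adjusted p = 0.276). The call of *Ryr1* was kept only without 0 h replicate 3 (up to 0.21). Of 20 endothelial genes 18 were higher and only *Lyve1* rose (median 0.3), while *Pecam1* was at 0.44 (adjusted p = 0.279) and *Cdh5* at 0.31 (adjusted p = 0.466). Endothelial array means lay between 7.95 and 8.1 before and between 8.39 and 8.5 after culture.

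Among 16 macrophage genes *Mrc1*, a mannose receptor that is found with *Lyve1* on some tissue macrophages, rose by 0.89 from 6.99, 6.89 and 7.05 to 7.93, 7.88 and 7.78, and was lost in all 6 fits without 1 array (0.0728 to 0.147). *Csf1r* (0.34, adjusted p = 0.832) and *Cd68* (0.26, adjusted p = 0.842), which define macrophages, were not called, and the list means ranged from 6.55 to 6.64 before and from 6.63 to 6.93 after culture. Of 18 genes of the coelomic lining *Wnt2b* and *Wt1* rose, *Wt1* by 1.13 from 6.09, 5.89 and 5.99 to 7.22, 7.18 and 6.94, lost in all 6 fits (0.0731 to 0.133), and 10 of 18 were higher. The defining genes *Upk3b* (0.38, adjusted p = 0.762) and *Msln* (-0.02, adjusted p = 0.983) were not called, and the list means ranged from 6.91 to 7.18 before and from 7.16 to 7.24 after culture. The part of these cells in the changes was not tested.

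The lists of 20 ectodermal (median -0.05), 22 neuronal (0.22), 12 neural crest and Schwann cell (0.29), 11 placental (-0.04), 15 erythroid (-0.4) and 16 liver and yolk sac genes (-1.08) gave 0 calls by limma. At an unadjusted p under 0.05, 2 ectodermal (10%), 3 neuronal (13.6%) and 3 neural crest genes (25%) were higher, against 6.18% of all genes, and 1 ectodermal (5%), 1 placental (9.09%), 1 erythroid (6.67%) and 3 liver and yolk sac genes (18.8%) were lower, against 7.36%. The neuronal array means, between 5.94 and 6.07 before and between 6.31 and 6.34 after culture, did not overlap, as in several other lists. In the neuronal list 21 of 22 genes were higher. In the 6 arrays alone 3 neuronal genes and 1 placental gene rose, with array weights 2 neuronal and 2 neural crest genes rose and 1 ectodermal gene fell, and 1 neural crest gene rose without 0 h replicate 3. All 15 erythroid genes were lower, with array means of 8.85, 8.25 and 8.49 at 0 h and 8.04, 8.43 and 7.82 at 1 h, which overlap. The median of the liver and yolk sac list was -0.05 without 0 h replicate 3.

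Further genes that rose and belong to no list were picked after their values were seen, so they say nothing about a group. They included the glutamate receptor genes *Gria3* (1.03), *Gria1* (0.85) and *Grid1* (0.84), the GABA receptor genes *Gabra5* (0.94) and *Gabra3* (0.92), the GABA-making enzyme *Gad2* (1.08) and the adhesion genes *Ntm* (0.85), *Lsamp* (0.82) and *Negr1* (0.71). *Gad2* read 4, 3.85 and 3.94 and then 5.13, 5.01 and 4.88, a low level on this scale in both groups, and *Gria3* read 7.15, 7.41 and 7.51 and then 8.49, 8.33 and 8.32. The marker *Stmn2* of differentiated neurons was at 6.83, 7.99 and 7.37 and then 7.57, 7.44 and 7.73 (0.19, adjusted p = 0.974). *Kcnj8* (1.29) and *Abcc9* (1.22), neighbouring genes whose products form 1 potassium channel, rose together. *Kcnj8* read 5.94, 5.78 and 6.17 and then 7.33, 7.22 and 7.2, with groups more than 1 unit apart.

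The same hour of culture at E10.5 was measured on 6 other arrays, where 414 genes rose (2.79%) and 167 fell (1.12%). Of the E12.5 rises, 58 were also rises at E10.5, which is 30.4% of the E12.5 and 14% of the E10.5 rises, and 13 falls were shared, 10.6% of those at E12.5 and 7.78% of those at E10.5. In fits without 1 array the 58 shared rises became 21 to 57 and the 13 shared falls 1 to 14, lowest without E12.5 0 h replicate 1, and for falls also without E10.5 0 h replicate 3. The E10.5 falls alone ranged from 28, without E10.5 0 h replicate 2, to 456, without replicate 1. Single arrays of that stage stood apart: the placenta and decidua list averaged 5.14, 7.09 and 7.09 at 0 h and at most 4.16 at 1 h, and the neuronal list 8.92, 6.54 and 6.61 at 1 h, and their part in the E10.5 counts was not tested. Genes that rose at both stages included *Hspa1a* (2.96 at E12.5, 4.52 at E10.5), *Cxcl13* (3.13 and 1.67), *Rxfp2* (2.82 and 1.6), *Hoxc5* (2.85 and 1.32), *Tagln* (1.49 and 1.57), *Wnt2b* (1.53 and 1.04), *Igf1* (1.03 and 1.21) and *Postn* (1.17 and 1.5). *Hoxa11* (-1.19 and -1.42), *Mecom* (-0.97 and -0.91) and *Plk1* (-0.35 and -0.49) fell at both. The 191 genes that rose at E12.5 had a median change of 0.38 at E10.5, and the 123 that fell had a median of -0.13. Smaller medians at E10.5 are favoured by the choice of these genes on their E12.5 change.

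The difference between the changes of both stages was tested directly. The change was higher at E12.5 in 22 genes (0.148%) and lower in 58 (0.39%), and without E10.5 0 h replicate 1 in 207 and 94. Of the 191 E12.5 rises, 14 were higher than at E10.5 and 1 was lower, and of the 123 falls 16 were lower and 0 higher. The choice of genes favours this split, because the tested difference holds the E12.5 change by which they were called. It therefore says nothing about which stage responds more. *Cemip* rose at E12.5 and was at -0.57 (adjusted p = 0.231) at E10.5, a difference of 2.39 ± 0.34 (SE; adjusted p = 0.00263). *Adh1* differed by 2.14 (0.7 at E10.5, adjusted p = 0.157), *Thy1*, a surface protein of fibroblasts and other cells, by 1.66, since it rose by 0.96 at E12.5 and fell by 0.7 at E10.5, and *Ccl11* by 1.3. *Atp6v1g3* (-1.87), *Vnn1* (-1.79) and *Zfp810* (-1.03) fell only in the E12.5 arrays by the test, with E10.5 changes of 0.17, 0.64 and 0.11, and the differences in brackets passed the test.

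**Figure D4:**
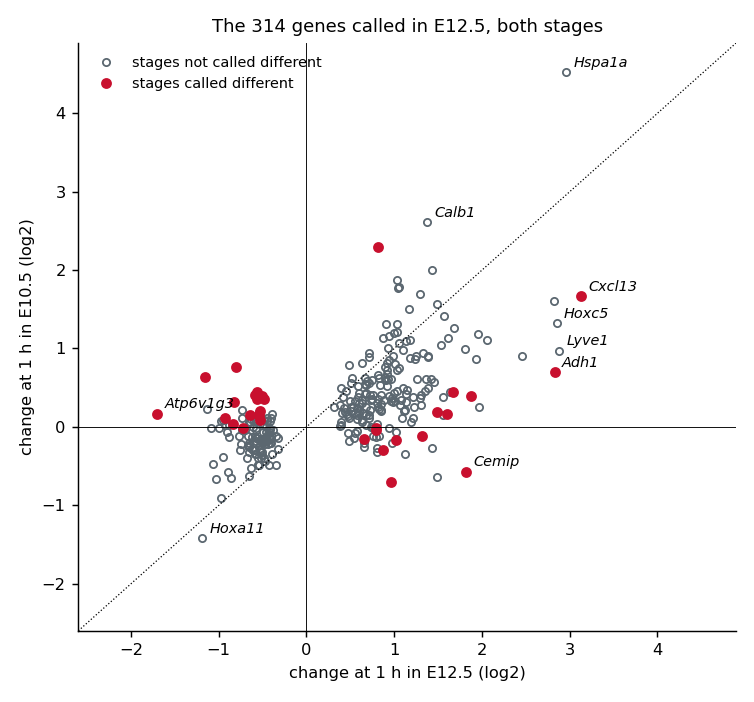
Change at 1 h in E12.5 (x axis) and in E10.5 (y axis), both in log2, for the 314 genes called in E12.5, with filled red dots where the difference between stages had an adjusted p under 0.05 and a dotted line of equal change. Hspa1a lies above that line (2.96 and 4.52), Adh1 and Cemip lie far below it, and Hoxa11 (-1.19 and -1.42) lies close to it.

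The 3 h arrays of E12.5 were set beside the 1 h arrays. The comparison of 3 h with 0 h shares the 0 h arrays, and that of 3 h with 1 h shares the 1 h arrays, so their values stand side by side only. At 3 h 1477 genes were above 0 h (9.94%) and 2609 below (17.6%), and between 1 h and 3 h 487 rose (3.28%) and 1215 fell (8.18%), by the same test, with 174 and 363 without 1 h replicate 2. *Hspa1a* went on, from its mean rise of 2.96 at 1 h to 4.47 at 3 h, with 3 h arrays at 13.15, 11.77 and 11.95 (3 h minus 1 h 1.51, adjusted p = 0.0302). *Hoxc8* rose by a further 1.3 (adjusted p = 0.0228) to 10.13, 10.38 and 10.61, and *Hoxb3* by 0.82. *Col1a1* rose by a further 0.69 (adjusted p = 0.031) to 11.29, 11.21 and 11.11, with arrays of the 3 times in separate ranges. In other genes the 3 h arrays overlapped those of 1 h: *Cxcl13* was at 8.25, 7.99 and 7.81 at 3 h (3 h minus 1 h -0.1, adjusted p = 0.859), *Adh1* at 9.56, 9.26 and 9.42 (-0.21, adjusted p = 0.725) and *Hoxc5* at 10.76, 10.55 and 11.12 (0.29, adjusted p = 0.656).

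Some distal genes were near their 0 h values at 3 h. *Msx1* was at 10.92, 10.72 and 10.75 at 3 h, 0.91 above its 1 h level (adjusted p = 0.0133) and -0.04 from 0 h (adjusted p = 0.938). *Cyp26b1* was at 9, 8.85 and 8.43, 0.89 above 1 h (adjusted p = 0.0299) and -0.14 from 0 h. Both genes were named for low values on the 1 h arrays, which the comparison with 3 h reuses. A rise after 1 h is therefore favoured by the choice, and these adjusted p-values are no separate evidence of a return. The distal list had a mean of 9.26, 9.05 and 9.05 on the 3 h arrays, and 8 of its 23 genes rose between 1 h and 3 h (3.28% of all genes). *Hoxa11* did not follow, at 8.45, 8.64 and 8.19 (-0.06 from 1 h, adjusted p = 0.938), nor did *Gdf5* at 8.55, 8.4 and 8.3 (-0.09, adjusted p = 0.872). The proximal and flank list stayed high at 8.89, 8.7 and 8.9. *Aspn*, named for its rise at 1 h, fell by 0.74 from 1 h to 3 h (adjusted p = 0.0182), a direction that its choice likewise favours.

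From 1 h to 3 h, 3 of 18 mitotic genes fell (the background is 8.18%). Against 0 h, 16 of 18 were lower at 3 h by the test (17.6% of all genes) and 4 at 1 h, with list medians of -0.5 and -0.34. *Ttk* fell by a further 0.38 to 8.4, 8.27 and 8.53 (adjusted p = 0.0305) and *Cdc25c* by 0.9 to 7.83, 7.47 and 7.69 (adjusted p = 0.00111). At 3 h, 14 of 28 immediate early genes, 13 of 20 *Atf4* and amino acid response genes and 18 of 20 collagen chains were above 0 h, against 9.94% of all genes, and from 1 h to 3 h 7, 3 and 5 of them rose (3.28% of all genes). Of the other lists with 0 calls by limma at 1 h, the erythroid and placental lists also had 0 at 3 h, and the neuronal list and the liver and yolk sac list had 1 each.

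**Figure D5:**
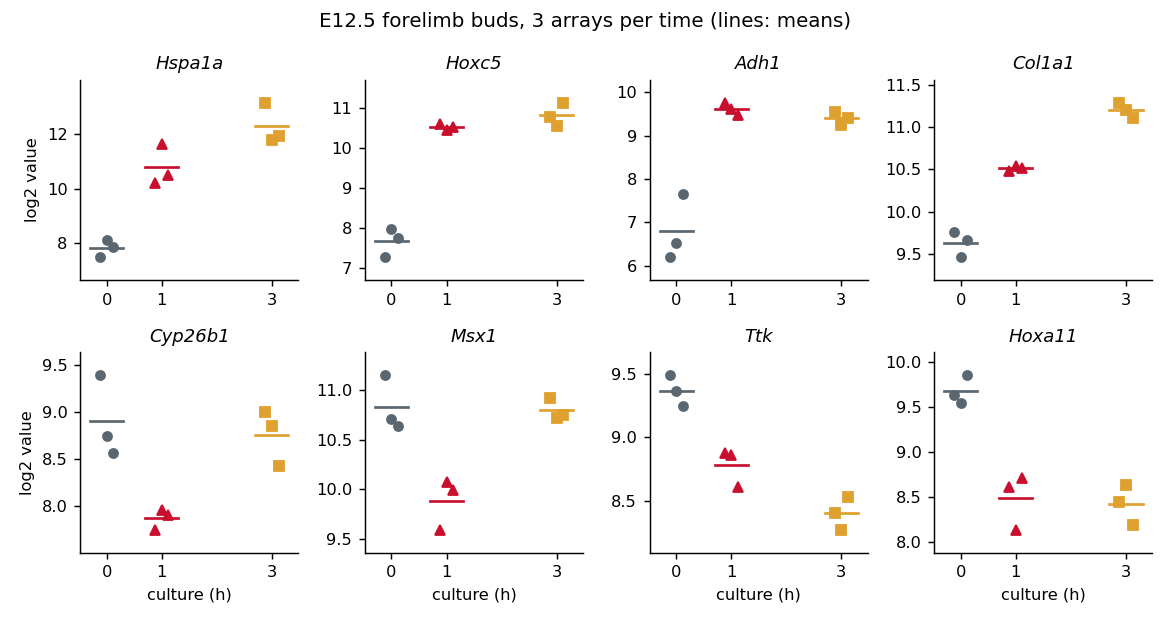
Log2 values of 8 genes in E12.5 FBs on each of 3 arrays at 0, 1 and 3 h of culture, with a line at each mean and an axis range of its own per gene. Hspa1a and Col1a1 are higher at 3 h than at 1 h, Hoxc5 and Adh1 level off, Cyp26b1 and Msx1 dip at 1 h and are back near the 0 h values at 3 h, Ttk falls on, and Hoxa11 stays low.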

How the data were processed

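The series holds 21 Affymetrix Mouse Exon 1.0 ST arrays of mouse FB RNA, in 7 groups of 3. The deposited values are log2 values that the authors made with RMA in the Affymetrix Expression Console, which corrects background, normalizes probe intensities between arrays and summarizes the probes of each transcript. The software version and genome build are not given in the sources used here. Arrays were grouped by the stage and culture time in their labels, and no filter on low values was applied, so quantile scaling and probe summarization can compress large changes and faint genes. Probe intensities and single exons are not analysed here, and the other E10.5 times entered only the fit.

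Of 23332 features in the table, 14996 carry 1 gene, 1019 several and 7317 none. The annotated genes were matched to RefSeq (GRCm38.p6) by gene identifier for 14941 features, and 135 genes had several features, of which that with the highest mean was taken, leaving 14860 genes. In R (4.3.3), limma (3.58.1) was used to fit them as 7 group means over 21 arrays (14 residual and 3.09 prior degrees of freedom), moderated by empirical Bayes. P-values were adjusted by Benjamini-Hochberg across the 14860 genes, and called means adjusted p under 0.05. Errors beside changes are standard errors of this fit, and the number of arrays limits the precision. Lists are described by counts and medians, with no test of a list. The fit was tested on simulated data with independent noise per array. It called 25.4% of added changes of 0.5 units, 71.6% of 1 unit and 97% of 2 units, and 8 other genes. A list with 0 calls can therefore hold small changes.

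The comparison, its members and the 40 gene lists were chosen with earlier results of these data known. Named genes follow a rule: up to 15 genes per direction with the largest change among those called without overlap, up to 4 called members of each list by size of change or, where none was called, up to 2 with the highest mean, up to 6 genes per direction by the difference between stages, and genes named in the paper's text. Genes outside it are said to be chosen after their values were seen. Not every gene that the rule picks is described above. Of those named in the paper, *Tbx1* (0, limma adjusted p = 0.998) and *Ncam1* (0.47, limma adjusted p = 0.324) were not called at 1 h of E12.5.

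Alternatives were a shift of arrays to a common median, quantile normalization of the values, leaving out the 30% dimmest genes, the mean of all features of a gene, all features, moderation with trend and robustness, weights per array, a block for the replicate number, only the 6 arrays, an adjusted p under 0.01, an unadjusted p under 0.01, at least 1.5-fold, the methods' t-test (taken as unpaired with 2 tails, since the name given there also mentions Mann-Whitney and none is given for arrays), and dropping single arrays. The 2 covariate fits, the alternatives for counts shared by both stages, for E10.5 and for 3 h against 0 h, and the fits without single E10.5 or 3 h arrays were added after seeing the data.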

Additional observations from a re-analysis of the deposited data

Results flagged for a closer look

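The change at 1 h differed between E12.5 and E10.5 by limma in 80 genes, higher at E12.5 in 22 and lower in 58. The values below are the E12.5 change minus the E10.5 change on the log2 scale. The largest difference was that of *A2m*, a protease inhibitor (6.96, adjusted p = 0.00901): it was at 7, 6.82 and 7.72 at 0 h and 9.69, 9.36 and 8.85 at 1 h of E12.5 (adjusted p = 0.244), and at 7.02, 11.46 and 11.22 and then 5.06, 5.09 and 5.03 at E10.5. The limma p of *A2m* at E12.5 rests on the spread in all 7 groups. Its standard deviation was 2.5 at 0 h of E10.5, against 0.48 and 0.42 at 0 h and 1 h of E12.5. Genes of placenta and decidua moved with *A2m* at E10.5, where the mean of 11 genes was 5.14, 7.09 and 7.09 at 0 h and 3.98 to 4.16 at 1 h. Their part in the difference of *A2m* between stages was not tested.

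Differences in the same direction were found for *Cemip* (2.39), *Adh1* (2.14), *Thy1* (1.66), *Vegfd* (1.58), *Ephb1* (1.48), *Cxcl13* (1.46) and *Ccl11* (1.3). In the 12 fits that left out 1 array of either stage, *A2m*, *Cemip*, *Adh1* and *Thy1* passed every time, *Ccl11* in 10, *Vegfd* in 3, *Cxcl13* in 2 and *Ephb1* in 1.

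In the other direction, the difference was -4.35 for *Aldh1a2*, -3.11 for *Tnc*, -2.84 for *Foxc2*, -2.68 for *Ndnf*, -2.47 for *Lrrn4*, -2.22 for *Gdf10*, -1.87 for *Atp6v1g3*, -1.8 for *Jun*, -1.79 for *Vnn1*, -1.42 for *Tgfbi* and -1.03 for *Zfp810*. All but *Lrrn4*, which passed in 1, passed in each of the 12 fits without 1 array. *Aldh1a2*, *Tnc*, *Foxc2*, *Ndnf*, *Lrrn4*, *Gdf10*, *Jun* and *Tgfbi* were not called at E12.5 and rose at E10.5. Their rises at E10.5 were, in this order, 4.08, 3.55, 1.83, 2.62, 2.27, 1.83, 1.75 and 1.27. The array means of the coelomic lining list lay between 6.64 and 6.99 before and between 7.79 and 8.18 after culture at E10.5, against 6.91 to 7.18 and 7.16 to 7.24 at E12.5. The part of that tissue was not tested.

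Outside the genes tested, 8472 features carry no gene, several genes or a further feature of a gene. In a fit over all 23332 features, 8 of them rose and 8 fell at 1 h of E12.5.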

How the results depend on the processing

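The labels do not say whether replicate numbers pair the arrays. Deviations of E12.5 arrays with the same number correlated at -0.06, -0.1 and 0.03 over genes, and those with unlike numbers at up to 0.11. So few values cannot decide on a pairing. With the replicate number as a block 195 genes rose and 99 fell at 1 h of E12.5, and 266 of the 314 calls were kept. None of the 67 named genes that were called changed sign in a setting that tested them (61 without the 30% dimmest genes). Leaving out 1 array could not change a sign, because the groups of every called gene were separate. Settings with another threshold reuse the same change, so they could not change it either. In all 6 fits without 1 of the E12.5 arrays at 0 h or 1 h, 33 of the 67 called named genes were called. The count of 191 rises became 304 after quantile normalization, 710 with array weights, 418 in the 6 arrays alone, 84 at an adjusted p under 0.01, 426 at an unadjusted p under 0.01 and 1 by the methods' t-test with adjustment. The count of 123 falls became 66 at a common median, 215, 769, 203, 22, 437 and 0 in the same settings, 59 over all features and 53 with at least 1.5-fold. The unadjusted t-test gave 1453 higher and 1241 lower at 0.05, and 585 and 338 at 0.01. The cause of these shifts was not tested, other than that stricter thresholds and more features leave fewer calls. Rises were 60.8% of calls in the reported fit, 77% at a common median, 48% with array weights, 49.4% at an unadjusted p under 0.01 and 79.2% at an adjusted p under 0.01. Of the 314 calls, 210 were kept at a common median, 296 after quantile normalization and 314 with array weights. Without single arrays rises ran from 79 to 172 and falls from 19 to 117. The difference between stages (22 higher, 58 lower) became 43 higher at a common median, 52 and 88 after quantile normalization, 590 and 484 with array weights, and 9 to 207 and 22 to 94 without single arrays, with 207 and 94 without E10.5 0 h replicate 1. At E10.5 the 414 rises and 167 falls became 298 falls at a common median, 328 falls after quantile normalization, 928 and 956 with array weights, and 194 to 385 and 28 to 456 without single arrays (28 without E10.5 0 h replicate 2, 456 without replicate 1). Genes shared by both stages (58 risen, 13 fallen) became 5 fallen at a common median, 93 and 22 after quantile normalization, 227 and 71 with array weights, and 21 to 57 and 1 to 14 without single arrays, both lowest without E12.5 0 h replicate 1. From 1 h to 3 h, 487 rises and 1215 falls became 581 falls at a common median, 1039 rises after quantile normalization, 1364 and 2025 with array weights, and 174 to 453 and 363 to 1174 without single arrays, both lowest without 1 h replicate 2. From 0 h to 3 h, 1477 rises became 2563 with array weights, and without single arrays rises ran from 945 to 1413 and falls from 1779 to 2579. Counts within lists moved too: the 3 distal falls were 1 without 0 h replicates 1 or 2 or 1 h replicates 1 or 3, 5 after quantile normalization, 8 in the 6 arrays and 9 with array weights, the 7 collagen rises were 3 without these arrays and 4 without 1 h replicate 2, the 4 smooth muscle rises were 1 without these 4 arrays and 2 without 1 h replicate 2, and the 5 tendon rises were 2 without 0 h replicate 1 and 3 without 0 h replicate 2 or 1 h replicate 3. No background level was used here, so how far faint genes stand above background is unknown.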

Other observations

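Of the genes that belong to no list, 6 that rose at both stages are given here, chosen after their values were seen. *Plat*, the tissue plasminogen activator, read 6.99, 7.1 and 7.29 at 0 h and 8.56, 8.69 and 8.41 at 1 h of E12.5, a rise of 1.43 ± 0.14 (SE; limma adjusted p = 3.04e-05), and rose by 2 at E10.5. *Fap*, a surface protease of activated fibroblasts, rose by 1.39 at E12.5 and 0.89 at E10.5, the matrix protein gene *Abi3bp* by 1.67 and 0.45, the secreted protein gene *C1qtnf3* by 1.57 and 1.42, and the kinase gene *Prkg1* by 1.29 and 1.7. In these 5 genes the E12.5 groups did not overlap. The calcium-binding protein gene *Calb1* rose by 1.37 and 2.61.

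Zinc finger genes with a symbol of Zfp and a number, also chosen after their values were seen, were lower at an unadjusted p under 0.05 in 47 of 212 cases (22.2%) and higher in 4 (1.89%), where all genes gave 7.36% and 6.18%. Their median change was -0.1.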
